A study of Saccharomyces cerevisiae with 72 samples.

Results

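The 10 genes described here run the meiotic divisions of budding yeast or control the anaphase-promoting complex (APC/C). They were chosen by name from the 6660 genes of the deposited table, with earlier results of these data known. They are the monopolin genes *MAM1*, *CSM1* and *LRS4*, *SPO13*, the shugoshin gene *SGO1*, the polo kinase gene *CDC5*, the APC/C activator genes *CDC20* and *AMA1*, the APC/C subunit and inhibitor gene *MND2*, and *SPO12*, a gene of the exit from division. All 10 had a value in every one of the 36 conditions. In the R64 annotation of S288c, the assembly also called sacCer3, *MAM1* (YER106W) lies at chrV:372326-373234, *CSM1* (YCR086W) at chrIII:263392-263964, *LRS4* (YDR439W) at chrIV:1339676-1340719, *SPO13* (YHR014W) at chrVIII:132047-132922 and *SGO1* (YOR073W) at chrXV:464771-466543. *CDC5* (YMR001C) lies at chrXIII:269019-271136 on the minus strand and the other 9 genes on the plus strand, with *CDC20* (YGL116W) at chrVII:289809-291641, *AMA1* (YGR225W) at chrVII:945145-947019, *MND2* (YIR025W) at chrIX:403659-404765 and *SPO12* (YHR152W) at chrVIII:401434-401955. The coding sequences are uninterrupted except that of *AMA1*, which has 1 intron of 93 bases at chrVII:946328-946420. The study followed polyadenylated RNA of S288c diploids at 0, 2, 4, 6, 8 and 12 h in potassium acetate sporulation medium. The 2 genotypes, *kar4*Δ/Δ and wild type, were each followed with Pzev-*IME1* and Pzev-*RIM4* together, with Pzev-*IME1* alone, and with the endogenous promoters of both genes. Pzev is a promoter that an artificial activator, Z3EV, turns on when β-estradiol is added. The meiotic inducer *IME1* was thus overexpressed from Pzev in all Pzev strains, wild type included. The translational regulator *RIM4* was overexpressed from Pzev only in the strains with both Pzev promoters. In the study's strain list, the Pzev strains keep a copy of each gene under its own promoter. Kar4p is a transcription factor of mating that is also needed for mRNA methylation in meiosis. Which of the study's strains were sequenced is not given in the sources used here, so marker genes that differ between strains cannot be told apart from genotype or promoter.

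The APC/C is a ubiquitin ligase that marks securin and cyclins for destruction and so lets chromosomes separate. Cdc20p directs it at both meiotic divisions, Ama1p is an activator made only in meiosis, and Mnd2p, a subunit of the complex, holds Ama1p in check until the divisions. In meiosis I, sister kinetochores are clamped together by monopolin, which is made of Csm1p, Lrs4p, Mam1p and the kinase Hrr25p. Spo13p works with the polo kinase Cdc5p in this step, and Sgo1p shields the cohesin around centromeres until meiosis II. Ndt80p, the transcription factor made at the exit from pachytene, turns on many of the genes of the divisions through a promoter element called the middle sporulation element (MSE).

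Every value below is the authors' log2 fold change of a condition over wild type with endogenous promoters at 0 h, with the 2 replicates of a condition already combined. It is a change of each gene against its own level in that reference, and levels cannot be compared between genes. The genotypes are compared by subtracting the wild type log2 value from that of *kar4*Δ/Δ, in which the reference cancels only if the deposited values are additive. The table gives no replicate values, errors or counts, so depth is unknown, no test could be made, and no difference has a replicate check. Genes at least 2-fold apart (1 on the log2 scale) were counted. As deposited, each count of the 10 genes stands beside the share of the 6496 genes with complete values that were as far apart. Fewer cells that reach a stage and less RNA per cell cannot be told apart in these cultures.

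Some columns bear on how the rest can be read. *KAR4* itself was at values between -8.33 and -3.96 in the *kar4*Δ/Δ columns, except in the column labelled *kar4*Δ/Δ with endogenous promoters at 0 h, where it was at -0.55. No direction is drawn from that column. The spread of the values over all genes also differs between columns, with a standard deviation of 1.45 in *kar4*Δ/Δ and 2.11 in wild type at 12 h with both Pzev promoters. Quantile normalization, which gives all columns the same distribution, was therefore run as an alternative, and its values stand beside the deposited ones where it turns a difference described in the text.

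Sequence upstream of the genes was searched for elements known to control meiotic and division genes, since the courses of the 10 genes differ. In R64, the 400 bases before each start codon were searched on both strands for the MSE core (CACAAAA or CACAAAT, with CGCAAAA or CGCAAAT as its other forms), the URS1 core GGCGGC through which Ume6p and Ime1p act on early genes, and the forkhead site GTAAACA of genes of the G2 phase and mitosis. No word of one element overlaps a word of another in the matches below. The MSE core is in 25.6% of 6020 such windows, the URS1 core in 7.24% and the forkhead site in 8.49%. *CDC5*, *MAM1*, *CDC20* and *CSM1* hold an MSE core, *SPO13* and *CSM1* a URS1 core, and *CSM1*, *SGO1* and *SPO12* a forkhead site, while these letters are not in the windows of *LRS4*, *AMA1* and *MND2*. A match is a description and not a site shown to be used. The match nearest to the start codon is shown for each pair of gene and element, 5′ to 3′ on the strand of the gene with the element or its reverse complement in capitals. The 4 MSE core matches are these.
CDC5: ttttttgtaCACAAAAacattggct
MAM1: tactttctaTTTTGTGtcactaatt
CDC20: gactttgatTTTTGTGtccaattgg
CSM1: aacggtctgATTTGCGgcctggcaa
The URS1 core and forkhead matches follow, with the element named after the gene.
SPO13 URS1: tgagaaataGCCGCCgacaaaaag
CSM1 URS1: gtgaagaagGGCGGCctcattatg
CSM1 forkhead: tcttgtattTGTTTACattgaaaaa
SGO1 forkhead: ttttgttttGTAAACAaagaaattt
SPO12 forkhead: tggaaatatGTAAACAgggcatctt
The *CDC5* stretch is at chrXIII:271261-271285 on the minus strand, 140 to 134 bases before the start codon, and *CDC5* has 3 MSE core matches in all. The *MAM1* stretch is at chrV:372161-372185 and the *CDC20* stretch at chrVII:289706-289730, both on the plus strand, and each of these genes has 2 matches. The *SPO13* URS1 core lies 95 to 90 bases before the start codon, at chrVIII:131943-131966. The *CSM1* stretches are at chrIII:263042-263066 (MSE), chrIII:263147-263170 (URS1) and chrIII:263242-263266 (forkhead), the *SGO1* stretch at chrXV:464618-464642 and the *SPO12* stretch at chrVIII:401199-401223, all on the plus strand.

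With both Pzev promoters, 7 of the 10 transcripts were at least 2-fold below wild type in *kar4*Δ/Δ at 12 h, 1 was at least 2-fold above it, and 2 lay within 2-fold. The lower genes were *CDC20*, *AMA1*, *CDC5*, *MAM1*, *SGO1*, *SPO12* and *CSM1*, and the higher gene was *MND2*. Of all genes, 25.2% were at least 2-fold lower and 17.9% at least 2-fold higher at this time. The median difference of the 10 genes was -3.07, against -0.01 over all genes. After quantile normalization all 10 differences kept their sign, but of the 7 only *CDC20* (-1.92) and *CDC5* (-1.57) were still at least 2-fold lower.

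**Figure D1:**
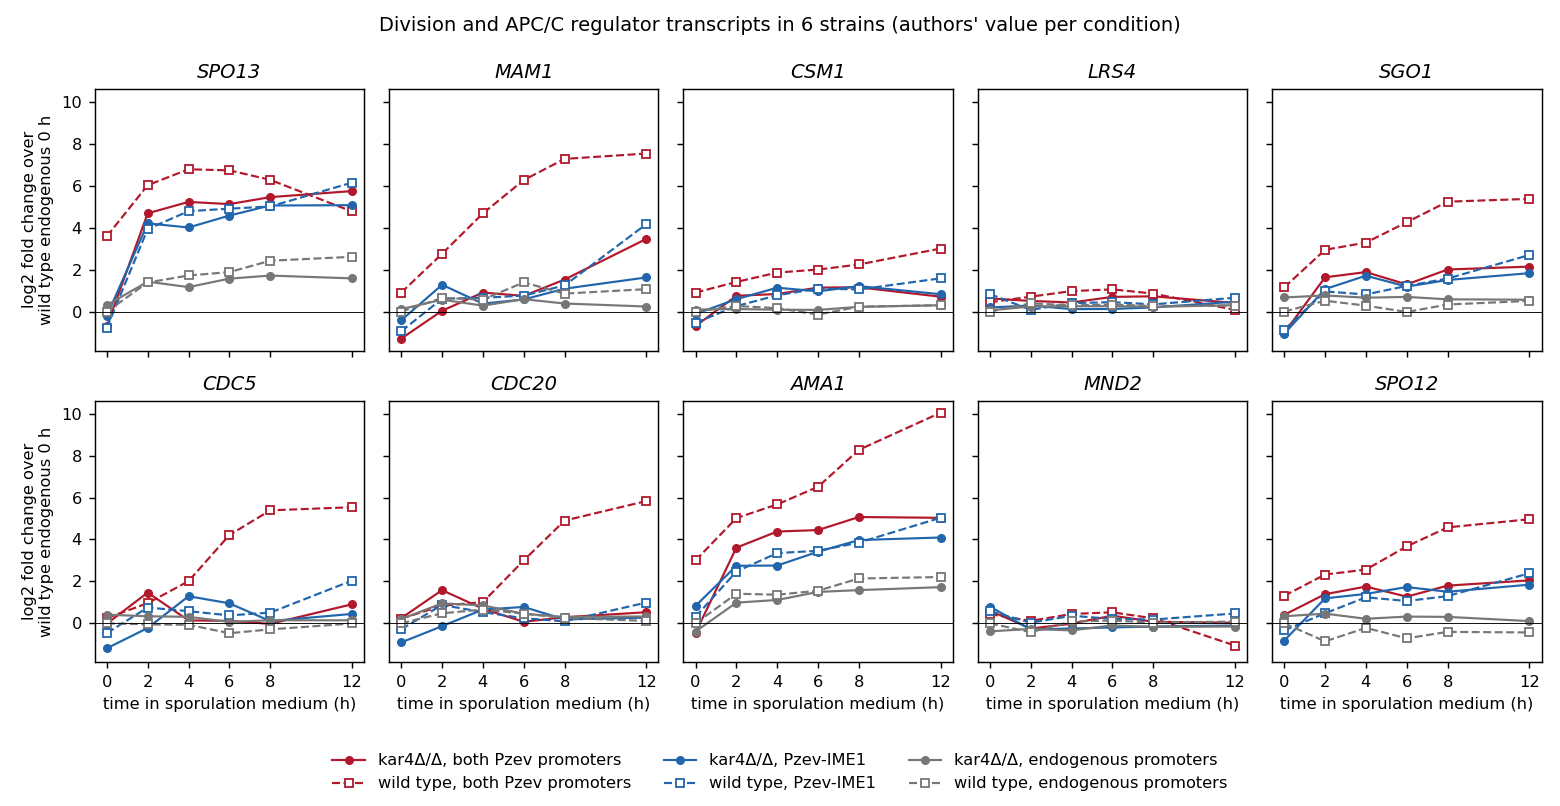
Courses of the 10 transcripts. Each panel is a gene, the horizontal axis is the time in sporulation medium in hours, and the vertical axis is the authors' log2 fold change over wild type with endogenous promoters at 0 h, 1 value per condition without error bars. Filled circles and solid lines are *kar4*Δ/Δ, open squares and dashed lines wild type, and the colour gives the promoters. The dashed red wild type line stands above the other strains for most genes late in the course. *LRS4* and *MND2* stay between -1.06 and 1.06.

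*MAM1* encodes the subunit that makes monopolin meiosis-specific, and it was the member farthest apart at 6 and 8 h. With both Pzev promoters, its log2 values at 0, 2, 4, 6, 8 and 12 h were -1.29, 0.04, 0.91, 0.75, 1.53 and 3.47 in *kar4*Δ/Δ, against 0.90, 2.76, 4.68, 6.27, 7.29 and 7.54 in wild type. The *kar4*Δ/Δ value at 12 h thus lay between the wild type values at 2 and 4 h. The difference was -2.19 at 0 h, reached -5.76 at 8 h, a 54.1-fold lower value, and was -4.07 at 12 h. It remained below 0 at every time after quantile normalization, at -1.84 at 8 h and -0.37 at 12 h.

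*CSM1* and *LRS4* encode the monopolin subunits that vegetative cells also use, in the nucleolus, and they took separate courses. *CSM1* had log2 values of -0.69, 0.75, 0.84, 1.14, 1.16 and 0.71 in *kar4*Δ/Δ and of 0.91, 1.41, 1.86, 2.00, 2.25 and 3.01 in wild type over the 6 times. Its difference was at least 2-fold at 0, 4, 8 and 12 h, at -1.02 and -1.09 just past that size at 4 and 8 h and at -0.86 just short of it at 6 h. *LRS4* was within 2-fold between the genotypes at every time in all 3 promoter backgrounds. Its log2 values lay between 0.41 and 0.73 in *kar4*Δ/Δ and between 0.08 and 1.06 in wild type with both Pzev promoters. The *LRS4* differences of -0.36 at 6 h and -0.13 at 8 h were 0.02 and 0.20 after quantile normalization. The kinase of monopolin, *HRR25*, was at 0.11 in *kar4*Δ/Δ and at 3.61 in wild type at 12 h, a difference of -3.498 (-1.31 after quantile normalization). Transcripts of Mam1p, Csm1p and Hrr25p were thus at least 2-fold lower at 12 h with both Pzev promoters as deposited, and that of Lrs4p was not.

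*SPO13*, a meiosis-specific gene that is expressed early, was high in *kar4*Δ/Δ as well. With both Pzev promoters its log2 values were -0.69, 4.69, 5.23, 5.13, 5.46 and 5.75 in *kar4*Δ/Δ, against 3.59, 6.03, 6.79, 6.74, 6.29 and 4.78 in wild type. The highest wild type value was at 4 h and the highest *kar4*Δ/Δ value at 12 h, so that the 2 courses crossed between 8 and 12 h. The difference was -4.29 at 0 h, between -1.61 and -1.34 from 2 to 6 h, -0.82 at 8 h and 0.97 at 12 h. After quantile normalization it was 0.62 at 6 h, 1.66 at 8 h and 2.13 at 12 h, so the sign at 6 and 8 h depends on the scaling. 

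*SGO1*, which keeps sister centromeres together until meiosis II, was lower in *kar4*Δ/Δ at every time with both Pzev promoters. Its log2 values were -1.02, 1.64, 1.88, 1.30, 2.01 and 2.15 in *kar4*Δ/Δ and 1.15, 2.95, 3.29, 4.26, 5.25 and 5.38 in wild type. The difference was -2.17 at 0 h, -1.31 at 2 h, -1.41 at 4 h, -2.97 at 6 h, -3.24 at 8 h and -3.23 at 12 h, with a 9.39-fold lower value at 12 h. The sign was kept after quantile normalization, with -0.65 at 12 h.

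*CDC5* and *CDC20* had similar courses, and with both Pzev promoters they were the only members above wild type at 2 h in *kar4*Δ/Δ. *CDC5*, the polo kinase of exit from pachytene and of both divisions, had log2 values of -0.02, 1.47, 0.14, 0.12, -0.03 and 0.91 in *kar4*Δ/Δ, against 0.25, 0.96, 2.01, 4.21, 5.39 and 5.54 in wild type. *CDC20*, the activator that starts anaphase, had values of 0.25, 1.58, 0.69, 0.07, 0.29 and 0.53 in *kar4*Δ/Δ, against 0.22, 0.84, 1.01, 2.999, 4.90 and 5.83 in wild type. Neither gene was 2-fold apart at 0 or 2 h, and both were above wild type at 2 h, by 0.51 for *CDC5* and 0.74 for *CDC20*. In *kar4*Δ/Δ at 12 h *CDC20* was 39.4-fold and *CDC5* 24.8-fold lower, the lowest and the third lowest differences of the 10 genes. The *CDC20* fold change over the reference in *kar4*Δ/Δ was higher than those of 71.3% of the genes of its column, against 98.1% for wild type. For *CDC5* the shares were 81.1% and 97.9%. The direction from 6 to 12 h was the same for both genes after quantile normalization.

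In wild type with both Pzev promoters, the transcript of the transcription factor gene *NDT80* rose over the course, as those of *CDC5* and *CDC20* did. In *kar4*Δ/Δ, *CDC5* and *CDC20* were highest at 2 h (1.47 and 1.58), where *NDT80* was at 0.05. With both Pzev promoters *NDT80* was between -0.14 and 0.34 in *kar4*Δ/Δ from 0 to 8 h and at 1.27 at 12 h, against -0.23, 0.55, 2.66, 4.18, 5.41 and 6.04 in wild type. Its part in the differences of the 10 genes was not tested.

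*AMA1* had the largest fold change of the 10 genes over the reference, at 10.05 in wild type at 12 h with both Pzev promoters. Its log2 values over the 6 times were -0.45, 3.61, 4.38, 4.45, 5.07 and 5.03 in *kar4*Δ/Δ, against 3.002, 5.02, 5.67, 6.51, 8.28 and 10.05 in wild type. The *kar4*Δ/Δ value was the same to within 0.05 at 8 and 12 h, while the wild type value was higher at 12 h. The difference was between -1.41 and -1.29 at 2 and 4 h and -5.02 at 12 h, a 32.3-fold lower value. At 12 h the *AMA1* fold change over the reference was nonetheless higher than those of 99.4% of the genes of its column in *kar4*Δ/Δ, against 99.6% in wild type. After quantile normalization the *AMA1* difference was 0.29 at 6 h, 0.34 at 8 h and -0.44 at 12 h, so its sign at 6 and 8 h depends on the scaling.

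*MND2*, whose product restrains Ama1p, was the exception among the APC/C genes. Its log2 values were 0.61, -0.25, -0.01, 0.37, 0.08 and 0.02 in *kar4*Δ/Δ and 0.44, 0.12, 0.45, 0.53, 0.24 and -1.06 in wild type with both Pzev promoters. The genotypes were within 2-fold up to 8 h (-0.16 at 6 h, 0.04 after quantile normalization), and the difference of 1.08 at 12 h was just past that size, with 0.53 after quantile normalization. The wild type value at 12 h was the lowest of *MND2* in all 36 columns. With Pzev-*IME1* alone *MND2* was below wild type in *kar4*Δ/Δ at every time after 0 h, by differences between -0.61 and -0.32.

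*SPO12*, which helps to release the phosphatase Cdc14p in anaphase, had log2 values of 0.40, 1.39, 1.75, 1.27, 1.80 and 2.05 in *kar4*Δ/Δ, against 1.31, 2.33, 2.56, 3.67, 4.58 and 4.97 in wild type with both Pzev promoters. The difference was -0.94 at 2 h, just short of 2-fold, and -2.92 at 12 h. Its paralog *BNS1* was at -1.23 in *kar4*Δ/Δ and 0.28 in wild type at 12 h, and did not reach 1 in any column.

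**Figure D2:**
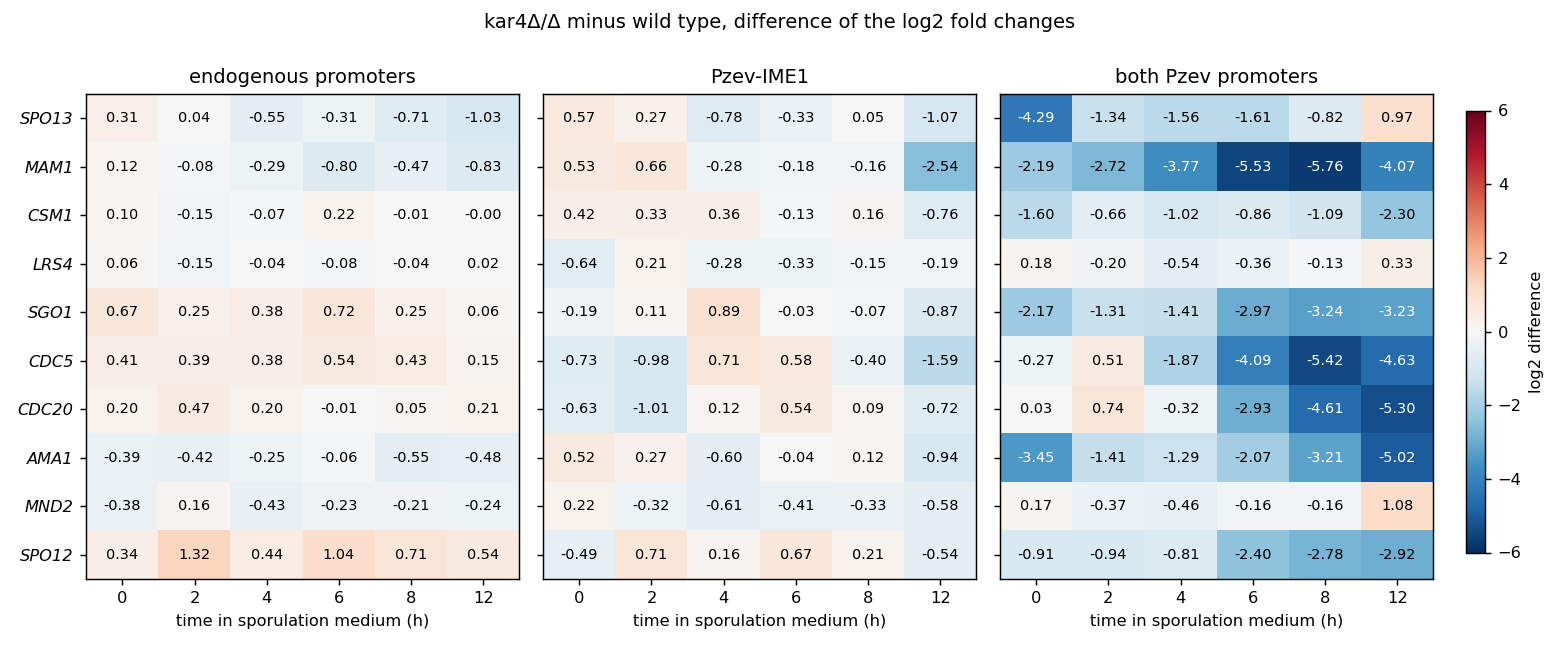
Differences of the 10 transcripts between the genotypes. Rows are genes, columns the time in sporulation medium in hours, and each cell prints *kar4*Δ/Δ minus wild type on the log2 scale, with blue below 0 and red above 0. The panels are the endogenous promoters, Pzev-*IME1* and both Pzev promoters. Cells below 0 are in all panels, and those farthest below 0 are in the panel of both Pzev promoters, where *MAM1* reaches -5.76 at 8 h. No direction is drawn from the cells at 0 h with endogenous promoters.

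The number of lower genes over the course with both Pzev promoters depended on the scaling. As deposited, in *kar4*Δ/Δ 5 genes were at least 2-fold lower at 0 h (5.99% of all genes), at 2 h 4 (6.31%), at 4 h 6 (6.4%), at 6 h 7 (11.1%) and at 8 h 7 (17.6%), and none was at least 2-fold higher before 12 h. After quantile normalization the number of lower genes was 6 at 0 h, 1 at 2 h, 2 at 4 h, 4 at 6 h, 3 at 8 h and 2 at 12 h, and *SPO13* was the 1 gene at least 2-fold higher at 8 and 12 h. No share of all genes was computed after quantile normalization, so these counts have none beside them. In the deposited values the share of all genes at least 2-fold higher was 1.35% at 0 h and 5.85% at 2 h. It was 7.28% at 4 h, 10.7% at 6 h and 12.8% at 8 h. As deposited, the genes lower at 0 h were *SPO13*, *AMA1*, *MAM1*, *SGO1* and *CSM1*. In that column *IME1* was at 1.41 in *kar4*Δ/Δ and 3.03 in wild type, and *RIM4* at 0.23 in *kar4*Δ/Δ and 3.21 in wild type, so the wild type values at 0 h stood above the reference already. From 2 h on *RIM4* was between 4.31 and 4.48 in *kar4*Δ/Δ and between 3.35 and 4.61 in wild type. The part of the 0 h values in the later differences was not tested.

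With Pzev-*IME1* alone *CDC20* was the only member 2-fold apart before 12 h. At 12 h all 10 genes were lower in *kar4*Δ/Δ, with a median of -0.81 against 0.01 over all genes, and 3 were at least 2-fold lower (5.37% of all genes; 2.31% were at least 2-fold higher). *MAM1* was at 1.63 in *kar4*Δ/Δ and 4.17 in wild type, a difference of -2.54, and *CDC5* at 0.45 in *kar4*Δ/Δ and 2.04 in wild type, a difference of -1.59. *SPO13*, at 5.08 in *kar4*Δ/Δ and 6.15 in wild type, was just past 2-fold at -1.07 and *AMA1* just short of it at -0.94, and both turned sign after quantile normalization, to 0.24 and 0.26. *NDT80* was at 0.23 in *kar4*Δ/Δ and 2.12 in wild type at this time.

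At 2 h with Pzev-*IME1*, *CDC20* was 2-fold lower at -1.01 and *CDC5* just short of it at -0.98, where 7.8% of all genes were at least 2-fold lower and 7.37% higher. No member was 2-fold apart at 4 h (5.51% of all genes lower and 4.09% higher), 6 h (3.34% and 1.49%) or 8 h (3.86% and 1.11%), and at 0 h likewise none was (3.89% and 4.86%). From 4 to 8 h *SPO13* was between 4.01 and 5.06 in *kar4*Δ/Δ and between 4.79 and 5.02 in wild type, and *AMA1* between 2.76 and 3.97 in *kar4*Δ/Δ and between 3.35 and 3.85 in wild type. *CDC20* did not reach 1 in either genotype with Pzev-*IME1* at any time.

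With endogenous promoters few members moved in either genotype. *SPO13* had log2 values of 1.43, 1.17, 1.57, 1.72 and 1.58 in *kar4*Δ/Δ at 2, 4, 6, 8 and 12 h, against 1.39, 1.72, 1.88, 2.43 and 2.61 in wild type. *AMA1* had values of 0.99, 1.11, 1.498, 1.58 and 1.73 in *kar4*Δ/Δ, against 1.41, 1.37, 1.56, 2.14 and 2.21 in wild type. The *AMA1* differences, all below 0 as deposited, turned to 0.10 at 4 h, 0.86 at 6 h, 0.17 at 8 h and 0.44 at 12 h after quantile normalization, and that of *SPO13* at 6 h turned from -0.31 to 0.57. These and *MAM1*, at 0.24 in *kar4*Δ/Δ and 1.07 in wild type at 12 h, were the only members to reach 1 in any column of this background. *SPO13* was the only member 2-fold apart at 12 h, lower in *kar4*Δ/Δ at -1.03, where 1.69% of all genes were lower and 1.09% higher. After quantile normalization its difference was -0.46, within 2-fold.

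*SPO12* stood on the other side with endogenous promoters. Its values at 2, 4, 6, 8 and 12 h were 0.46, 0.22, 0.32, 0.31 and 0.11 in *kar4*Δ/Δ, against -0.86, -0.22, -0.72, -0.41 and -0.44 in wild type, so it was higher in *kar4*Δ/Δ at all 5 times. The difference was past 2-fold at 2 h (1.32, with 2.34% of all genes higher and 1.75% lower) and at 6 h (1.04, with 1.89% higher and 2.88% lower). No member was 2-fold apart at 4 h (0.831% of all genes higher and 1.82% lower) or 8 h (1.22% and 1.54%). *CDC5* and *SGO1* were also higher in *kar4*Δ/Δ at all 5 times, by 0.15 to 0.54 and by 0.06 to 0.72. *MAM1* was lower at all 5 times, by differences between -0.83 and -0.08. The signs of these 3 genes and of *SPO12* were kept after quantile normalization.

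Strains with both Pzev promoters were also set against strains with Pzev-*IME1* alone in the 2 genotypes. These comparisons share their columns with those between genotypes and are no independent evidence. In the study's strain list, most strains with both Pzev promoters are homozygous for the Z3EV activator, and those with Pzev-*IME1* alone are heterozygous. Pzev-*RIM4* and the dose of the activator therefore cannot be told apart here. In *kar4*Δ/Δ at 12 h only *MAM1* was at least 2-fold higher with both Pzev promoters, by 1.84, where 6.23% of all genes were higher and 9.13% lower. In wild type at 12 h, 7 members were at least 2-fold higher and 2 at least 2-fold lower, where 24% of all genes were higher and 20.3% lower. The higher members were *AMA1* (5.01), *CDC20* (4.84), *CDC5* (3.504), *MAM1* (3.37), *SGO1* (2.68), *SPO12* (2.58) and *CSM1* (1.42, which turned to -0.06 after quantile normalization), and the lower were *MND2* (-1.53) and *SPO13* (-1.37). At 8 h *MAM1* (6.04) and *CDC5* (4.88) were the farthest apart in wild type, and *SPO13* was higher by 1.27, which quantile normalization turned to -1.83.

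Over the course, the members at least 2-fold higher with Pzev-*RIM4* added numbered 3 in *kar4*Δ/Δ at 0 h (2.52% of all genes), 2 at 2 h (7.47%), 2 at 4 h (5.73%), 1 at 6 h (3.83%) and 1 at 8 h (3.82%). In wild type they numbered 6 at 0 h (14.4%), 6 at 2 h (9.16%), 7 at 4 h (10.7%), 7 at 6 h (13.4%) and 8 at 8 h (19.1%). In *kar4*Δ/Δ 1 member was lower at 0 h (*AMA1*, 1.26% of all genes), at 2 h (*MAM1*, 11.2%) and at 4 h (*CDC5*, 6.7%), and none at 6 h (5.62%) or 8 h (6.87%). In wild type none was lower at 0 h (5.36%), 2 h (10.5%), 4 h (12.1%), 6 h (14.2%) or 8 h (17.3%). *CDC5* and *CDC20* were higher by 1.69 and 1.72 in *kar4*Δ/Δ at 2 h, and *CDC5* was lower at 4 h (-1.16).

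Pzev-*IME1* alone was compared with endogenous promoters in the same way. At 12 h 5 members were at least 2-fold higher with Pzev-*IME1* in *kar4*Δ/Δ (7.47% of all genes) and 7 in wild type (10.8%), and none was lower (5.34% in *kar4*Δ/Δ and 8.37% in wild type). *SPO13* was higher by 3.49 in *kar4*Δ/Δ and by 3.54 in wild type, and *AMA1* by 2.37 in *kar4*Δ/Δ and by 2.83 in wild type. *CDC5* was higher by 0.30 in *kar4*Δ/Δ and by 2.04 in wild type, and *MAM1* by 1.39 in *kar4*Δ/Δ and by 3.10 in wild type. At 2, 4, 6 and 8 h the higher members numbered 2 (10.9%), 5 (8.57%), 3 (6.9%) and 3 (7.65%) in *kar4*Δ/Δ, and 3 (7.22%), 3 (4.99%), 5 (7.65%) and 4 (7.76%) in wild type. *SPO13* and *AMA1* were among them each time in both genotypes. The only lower member was *CDC20* in *kar4*Δ/Δ at 2 h, at -1.09 (8.11% of all genes), while the shares of all genes lower were 8.54%, 6.77% and 6.74% in *kar4*Δ/Δ at 4, 6 and 8 h and 4.22%, 5.4%, 6.19% and 6.2% in wild type at 2, 4, 6 and 8 h.

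Within each strain, 12 h was also set against 2 h. With both Pzev promoters in *kar4*Δ/Δ, *MAM1* (3.42), *AMA1* (1.42) and *SPO13* (1.06, -0.37 after quantile normalization) were at least 2-fold higher at 12 h (8.96% of all genes), and *CDC20* (-1.05) was lower (10.3%). In wild type with both Pzev promoters, 7 members were at least 2-fold higher (23.8%), among them *AMA1* (5.03), *CDC20* (4.99) and *MAM1* (4.78), and *SGO1* at 2.43 turned to -0.36 after quantile normalization. *SPO13* (-1.25) and *MND2* (-1.18) were lower there (20.2%). With Pzev-*IME1*, 1 member was higher at 12 h in *kar4*Δ/Δ (*AMA1* at 1.35, with 6.34% of all genes higher and 9.84% lower) and 7 in wild type (7.11% higher and 5.08% lower), where *MAM1* was at 3.55 and *SPO13* at 2.21 turned to -0.45 after quantile normalization. With endogenous promoters no member was 2-fold apart in *kar4*Δ/Δ (0.477% of all genes higher and 1.4% lower), and 1 was in wild type (*SPO13* at 1.22, with 3.36% higher and 2.43% lower).

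Genes that work with the 10 were taken as 7 lists of 57 genes and read in the comparison of *kar4*Δ/Δ with wild type at 12 h with both Pzev promoters, where 25.2% of all genes were lower and 17.9% higher. The lists, like the 10 genes, were chosen with earlier results of these data known, so their counts are a description and no test. Of the 12 other APC/C core subunits, 11 were at least 2-fold lower and none higher, with a median of -3.60. *CDC27* was at 1.45 in *kar4*Δ/Δ and 6.63 in wild type, *APC5* at 0.54 in *kar4*Δ/Δ and 5.53 in wild type, and *CDC26* at 0.16 in *kar4*Δ/Δ and 4.89 in wild type. The exception, named after its value was seen, was *DOC1*, a subunit that helps to bind substrates, at 2.23 in *kar4*Δ/Δ and 2.04 in wild type. The count of lower subunits was also 11 of 12 at 6 h (11.1% of all genes) and at 8 h (17.6%), and it was 2 of 12 at 4 h (6.4%). After quantile normalization it was 5 of 12 at 6 h, 9 of 12 at 8 h and 10 of 12 at 12 h. The shares of all genes given here belong to the deposited values. None was computed after quantile normalization, for this list or any other. *MND2*, a subunit of the same complex, went the other way at 12 h.

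The activator *CDH1*, the inhibitor gene of its product, *ACM1*, securin (*PDS1*) and separase (*ESP1*) were all lower in *kar4*Δ/Δ by 2-fold or more, with a median of -2.83. *CDH1*, which takes the place of *CDC20* at the end of mitosis, was at -0.53 in *kar4*Δ/Δ and 2.87 in wild type. *PDS1* was at 2.77 in *kar4*Δ/Δ and 5.77 in wild type, and *ESP1* at 1.27 in *kar4*Δ/Δ and 3.93 in wild type. After quantile normalization 1 of the 4 remained at least 2-fold lower, and this was *CDH1* at -1.45.

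The genes of sister chromatid cohesion went in the other direction. Of 10 genes, 9 were at least 2-fold higher in *kar4*Δ/Δ at 12 h and none lower, with a median of 1.55 (8 of 10 after quantile normalization). *MCD1*, the mitotic cohesin subunit that separase cuts, was at 2.50 in *kar4*Δ/Δ and -1.10 in wild type. *ECO1*, the acetyltransferase that sets up cohesion, was at 1.43 in *kar4*Δ/Δ and -0.90 in wild type, and *SMC3*, a cohesin subunit, at 2.32 in *kar4*Δ/Δ and 0.36 in wild type.

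The other 4 lists had medians closer to 0. Of 17 genes of mitotic exit and early anaphase release, 7 were lower in *kar4*Δ/Δ by 2-fold or more and none higher, with a median of -0.12, while after quantile normalization none was and the median was 0.05. *CDC14*, the phosphatase that *SPO12* helps to release, was at 1.16 in *kar4*Δ/Δ and 4.44 in wild type, and the kinase gene *DBF20* and its partner *MOB1* were lower by 2.46 and 2.25. Of 6 spindle checkpoint genes 2 were lower and 1 higher, with the kinase gene *MPS1* at 1.31 in *kar4*Δ/Δ and 4.54 in wild type, *MAD3* at 1.43 in *kar4*Δ/Δ and 2.71 in wild type, and *MAD1* at 0.56 in *kar4*Δ/Δ and -0.68 in wild type. The checkpoint median of -0.20 turned to 0.26 after quantile normalization, with no gene 2-fold lower and 1 higher. None of the 4 chromosomal passenger genes was 2-fold apart, with *SLI15* just short of it at 0.99, *BIR1* at 0.78 and *NBL1* at 0.46, and 2 were at least 2-fold higher after quantile normalization. Of the 4 partners of monopolin and shugoshin, *HRR25* and the phosphatase subunit gene *RTS1* (0.40 in *kar4*Δ/Δ and 1.52 in wild type) were lower, and the difference of *DBF4* was 0.31. The median of these 4 was -0.45, and after quantile normalization it was 0.16 with 1 gene 2-fold lower. With Pzev-*IME1* (5.37% of all genes lower and 2.31% higher) and with endogenous promoters (1.69% and 1.09%) at 12 h, no list had more than 1 gene 2-fold apart in each direction.

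**Figure D3:**
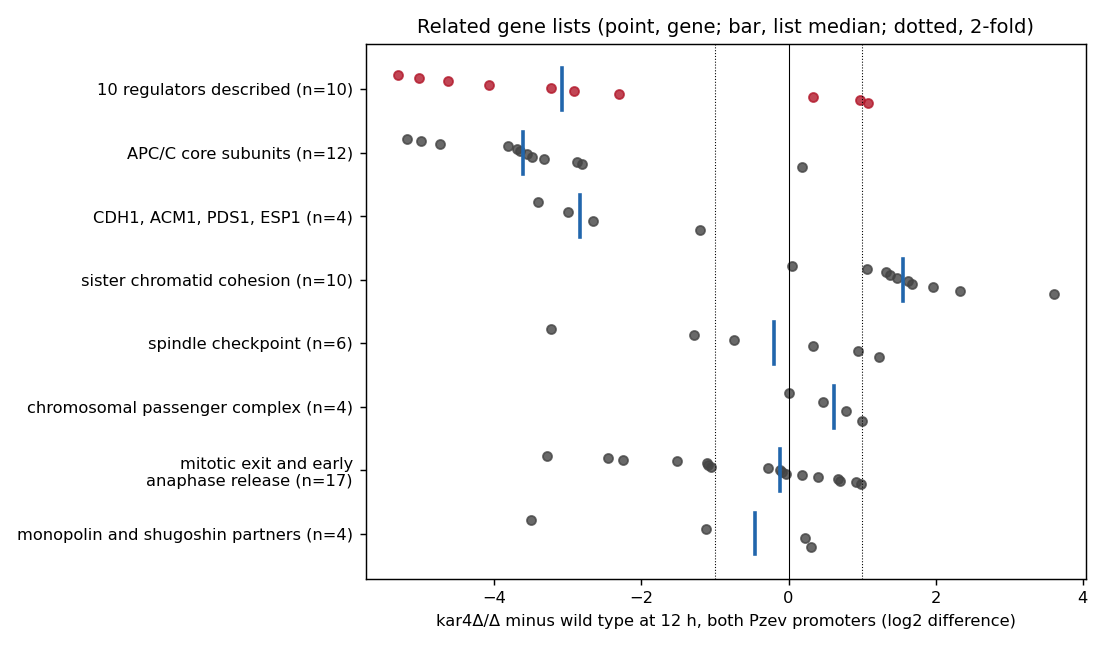
Related genes at 12 h with both Pzev promoters. Each point is a gene, its horizontal place is *kar4*Δ/Δ minus wild type on the log2 scale, the blue bar is the median of the list and the dotted lines mark 2-fold. The 10 regulators (red) have a median of -3.07, the APC/C core subunits one of -3.60 and the cohesion genes one of 1.55.

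The courses of the 10 genes were also compared over the 36 columns, which share the reference and, within a strain, a culture series. The Pearson correlation was 0.95 for *CDC5* with *CDC20*, for *CSM1* with *AMA1* and for *CSM1* with *SGO1*, and 0.41 for *SPO13* with *CDC20*. *MND2* had its highest correlation with *LRS4*, at 0.59, and was between -0.34 and 0.02 with the other 8 genes. Among all genes with complete values, those most like *SPO13* were *HED1*, a regulator of the recombinase Rad51p (0.99), YDR015C (0.99) and *PCH2*, a gene of the recombination checkpoint (0.99). *CDC5* was most like *SPO77* (0.97), the B-type cyclin gene *CLB4* (0.97) and YCR045W-A (0.97), and *CDC20* was most like YEL023C (0.96), YCR045W-A (0.96) and the APC/C subunit gene *CDC23* (0.96).

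*MAM1* was most like *SPO23* (0.97), *RRT5* (0.97) and *PES4* (0.97), and *SGO1* was most like the exonuclease gene *EXO1* (0.98), securin *PDS1* (0.97) and *BNR1* (0.97). *CSM1* was most like *AMA1*, *QRI1* and *SGO1* (0.95 each), and *SPO12* was most like the septin gene *CDC3*, *MLO50* and YPR027C (0.96 each). *AMA1* was most like YGR226C (1.00), which is not in the annotation used here, *PAD1* (0.97) and YDR537C (0.96). YGR226C was at 4.82 in *kar4*Δ/Δ and 9.81 in wild type at 12 h with both Pzev promoters, beside 5.03 and 10.05 for *AMA1*, and because no source used here says whether reads were counted by strand, reads of genes that overlap on opposite strands cannot be told apart. *LRS4* (*VPS30* at 0.87, YDL199C at 0.85 and *VNX1* at 0.84) and *MND2* (*DDI1* at 0.90, *UBP6* at 0.86 and *IGD1* at 0.83) had the loosest matches.

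**Figure D4:**
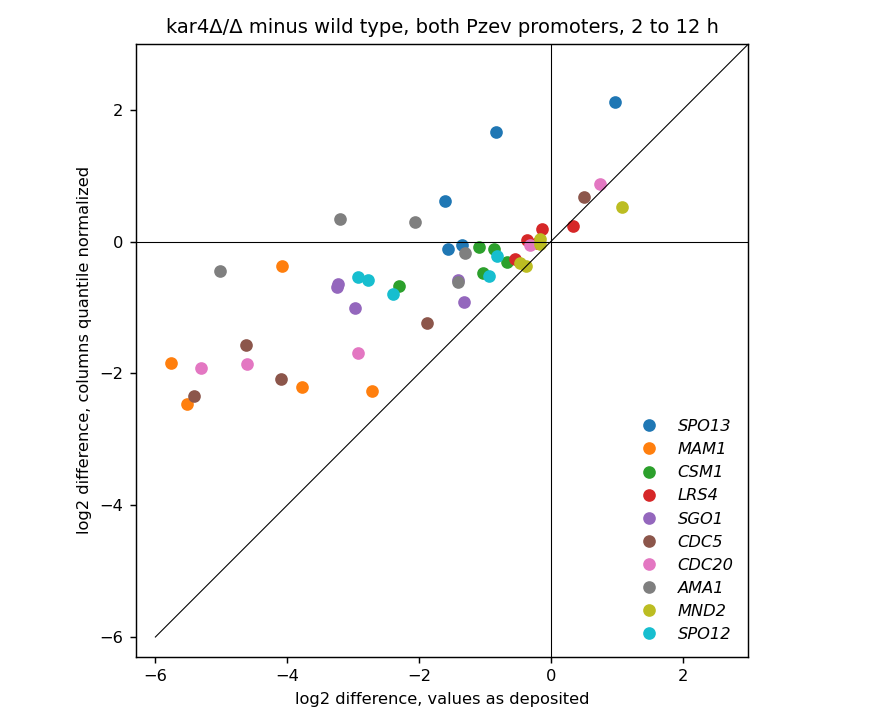
The genotype differences with both Pzev promoters under 2 scalings. Each point is 1 gene at 1 time from 2 to 12 h, with *kar4*Δ/Δ minus wild type of the deposited values on the horizontal axis and of quantile normalized columns on the vertical axis, both on the log2 scale, and the diagonal is equality. *CDC5*, *CDC20* and *MAM1* hold the lowest values on both axes, while *AMA1* at 6 and 8 h and *SPO13* at 6 and 8 h lie above 0 on the vertical axis and below 0 on the horizontal axis.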

How the data were processed

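RNA-seq of 72 libraries, 2 biological replicates of each of 36 conditions, was used. On Galaxy, the authors mapped paired-end reads to sacCer3 (BWA-MEM), took counts per gene (htseq-count) and ran DESeq2 (versions not given in the sources used here). The deposited values are the authors' log2 fold changes over wild type with endogenous promoters at 0 h, with replicates combined. Because only these values are used, they are treated as expression values of a condition, and no per-gene test is possible. Of 6660 genes, 6496 had a value in every column, and 16 unnamed columns were not used.

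Differences of log2 values were computed here, and a size of 2-fold was counted. The genes named are the 10 members, *KAR4*, *IME1*, *RIM4*, *NDT80*, *BNS1*, *CDH1* and *HRR25*, up to 3 genes of each list with the largest difference at 12 h with both Pzev promoters, and the 3 genes most correlated with each member. The members and lists were chosen with earlier results of these data known. Alternatives were quantile normalization and median centring of the columns, a 4-fold size, another gene background and other correlations. Positions and upstream sequence are from the RefSeq R64 assembly, in which 5986 of the 6660 identifiers were found. The counting steps were tested on simulated data. The work was done with matplotlib 3.10.9, pandas 2.3.3 and numpy 2.4.6 under Python 3.11.15.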

Additional observations from a re-analysis of the deposited data

How the results depend on the processing

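No paired analysis was possible because the deposited columns hold 1 value per condition with both replicates combined, and for the same reason no replicate could be left out. Quantile normalization of the columns reversed 13 called differences of single genes, and centring on column medians reversed none. Of 44 called differences between *kar4*Δ/Δ and wild type, 40 kept their sign and 22 were still at least 2-fold under quantile normalization. The 4 reversed were *SPO13* with Pzev-*IME1* at 12 h (0.24) and, with both Pzev promoters, *SPO13* at 6 h (0.62) and *AMA1* at 6 h (0.29) and 8 h (0.34). In wild type with both Pzev promoters against Pzev-*IME1*, *SPO13* became -0.16 at 2 h, -0.16 at 4 h, -0.88 at 6 h and -1.83 at 8 h, and *CSM1* -0.0098 at 8 h and -0.064 at 12 h. Between 12 and 2 h, *SPO13* became -0.45 in Pzev-*IME1* wild type, and with both Pzev promoters *SPO13* became -0.37 in *kar4*Δ/Δ and *SGO1* -0.36 in wild type.

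Counts at 12 h also moved under quantile normalization. No share of all genes was computed for the counts under quantile normalization or at a 4-fold size. For *kar4*Δ/Δ against wild type, the lower members became 0 with endogenous promoters (1 as deposited) and 2 with both Pzev promoters (7). For both Pzev promoters against Pzev-*IME1* in wild type, lower members became 1 (2) and higher members 1 (7). For Pzev-*IME1* against endogenous promoters, higher members became 3 in *kar4*Δ/Δ (5) and 4 in wild type (7). For 12 against 2 h in *kar4*Δ/Δ, they became 1 lower (0) and 1 higher (0) with endogenous promoters, 0 higher (1) with Pzev-*IME1* and 1 higher (3) with both. In wild type they became 0 higher (1) with endogenous promoters, 2 higher (7) with Pzev-*IME1*, and 1 lower (2) and 2 higher (7) with both. Of the 57 related genes, the number lower in *kar4*Δ/Δ became 12 (26) for both Pzev promoters and 0 (2) for Pzev-*IME1*.

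At a 4-fold size, members lower in *kar4*Δ/Δ numbered 0 with endogenous promoters and 1 with Pzev-*IME1*, while with both promoters 0 were higher. For both Pzev promoters against Pzev-*IME1*, 0 were higher in *kar4*Δ/Δ and 0 lower in wild type, and for Pzev-*IME1* against endogenous promoters 2 were higher in *kar4*Δ/Δ. For 12 against 2 h, in *kar4*Δ/Δ 0 were higher with Pzev-*IME1*, and 0 lower and 1 higher with both promoters. In wild type 0 were higher with endogenous promoters, 3 higher with Pzev-*IME1* and 0 lower with both. The genes most like a member changed for all 10 members with Spearman correlation, and for all 10 without the 6 wild type columns with both Pzev promoters. Why these values moved was not tested. Depth and replicate spread are unknown, so no difference here can be set against either.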

Other observations

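The cohesion genes crossed over during the course with both Pzev promoters. Their median difference, *kar4*Δ/Δ minus wild type, was -2.63 at 0 h, -1.71 at 2 h, -0.36 at 4 h, 0.12 at 6 h, 1.03 at 8 h and 1.55 at 12 h. After quantile normalization the median at 4 h was 0.14 and those at the other times kept their sign. At 0 and 2 h 7 of the 10 genes were at least 2-fold below wild type (5.99% and 6.31% of all genes). At 8 h 5 were at least 2-fold above it (12.8% of all genes). After quantile normalization 7 were lower at 0 h and 6 at 2 h, and 8 were higher at 8 h. Of the 10 regulators, only *SPO13* was below wild type at 0 h and above it at 12 h, with -4.29 and 0.97. As deposited, *LRS4* and *MND2* were below wild type from 2 to 8 h and above it at 12 h, by 0.33 and 1.08.

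The APC/C core subunits had a median difference of -0.33 at 0 h, -0.43 at 2 h, -0.58 at 4 h, -1.61 at 6 h, -3.01 at 8 h and -3.60 at 12 h. After quantile normalization it was -0.82 at 6 h, -1.36 at 8 h and -1.27 at 12 h. With Pzev-*IME1* at 12 h, where 1 of the 12 was at least 2-fold lower (5.37% of all genes), the median was -0.63, against 0.01 over all genes.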
